A study of Mus musculus with 8 samples.

Results

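Platelets and megakaryocytes, the large bone marrow and spleen cells that shed them, carry a small set of transcripts that few other blood cells make. The 7 genes described here were named by symbol: the granule chemokines Pf4 and Ppbp, the adhesive ligand Vwf, the surface receptor subunits Itga2b, Gp9 and Gp1bb, and the granule membrane receptor Treml1. Each symbol was matched to its Ensembl identifier through GENCODE M21 on GRCm38, and all 7 were found among the 51826 genes of the read count matrix. The counts come from RNA libraries of unsorted spleen cells, 1 library for each of 8 female Balb/c mice, 4 controls and 4 treated with tRA, all-trans-retinoic acid, the vitamin A metabolite that activates retinoic acid receptors. The tRA mice were dosed orally once a day with 1 mg/kg body weight, beginning when they were weaned, and spleens were taken when the animals were 3 months old. By the study's methods the controls were given the vehicle, canola oil, and none of the 8 mice had been exposed to pristane. The treatment text of the sample labels gives the tRA dose for all 8 mice, so the groups were taken from the sample titles, which separate 4 control from 4 tRA samples. The comparison asks how tRA, given before any induction of lupus, changed transcript levels in the spleen. Counts on genes totaled between 30919272 and 37539631 per control mouse (median 33879268) and between 31810417 and 35165876 per tRA mouse (median 32899174.5).

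In megakaryocytes, transcription factors such as GATA1, FLI1 and NFE2 switch on the genes of the platelet surface and granules, and platelets, which have no nucleus, inherit part of that RNA. At a wound, von Willebrand factor tethers platelets through the GPIb-IX-V complex, the integrin αIIbβ3 then binds fibrinogen, and the granules release chemokines and adhesive proteins. The mouse spleen is a site of megakaryocyte growth in its red pulp and it also holds a pool of circulating platelets. For these samples the spleen cells were brought into suspension and, by the study's methods, treated with a buffer that lyses red blood cells.

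The platelet and megakaryocyte transcripts were scarce in these splenocytes beside those of lymphocytes. The unit of level is CPM, the counts of a gene relative to all counts of its library after TMM normalization, and on this scale 3 counts, taken as the floor of detection, corresponded to 0.0811 to 0.0969 CPM per mouse. The 7 genes together held 348 to 422 counts in each control mouse and 296 to 433 in each tRA mouse. Itga2b and Vwf held most of them, while each of the other 5 genes had at most 27 counts in any mouse. Divided by the length of the gene's exons, the mean level over the 8 mice was 1.10 CPM per kb for Itga2b and 0.470 for Pf4, against 915 for Cd79a, the B cell receptor component, and 317 for Trac, the constant region of the T cell receptor. Lymphocyte transcripts were thus abundant in these samples. Of the platelet genes Itga2b and Vwf stood well above the floor. Pf4, Gp9 and Gp1bb lay within an order of magnitude of it, and Ppbp and Treml1 reached under it in some mice. Fewer megakaryocytes or platelets and less RNA in each of them cannot be told apart in bulk RNA.

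Of the 7 genes, 5 passed the filter on low counts (Pf4, Vwf, Itga2b, Gp9 and Gp1bb), and Ppbp and Treml1 did not. None of the 5 reached an FDR under 0.1 in the quasi-likelihood test of edgeR with Benjamini-Hochberg adjustment, where 0 of all 16484 genes tested (0%) did. At an unadjusted p under 0.05 there were 0 of the 5 and 1070 of all genes tested (6.49%). DESeq2 called 44 and limma-voom 1 of all genes at the same FDR. Limma-voom called 0 of the 5, and so did DESeq2, which gave an adjusted p for 2 of them, Itga2b and Vwf. The log2 fold change of tRA over control was negative for 4 and positive for 1, with a median of −0.25 beside 0.0014 over all genes tested. The median of these genes was −0.42 without tRA mouse 3 and −0.067 without control mouse 3. The groups overlapped in all 5, and over all genes tested the 4 mice of one group lay on one side of the other 4 in 3.54%. Among all 7, Ppbp was the only gene with every tRA mouse below every control mouse in CPM, an order held by 379 (1.27%) of the 29817 genes with any count, though the nearest mice of its groups had the same count.

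**Figure D1:**
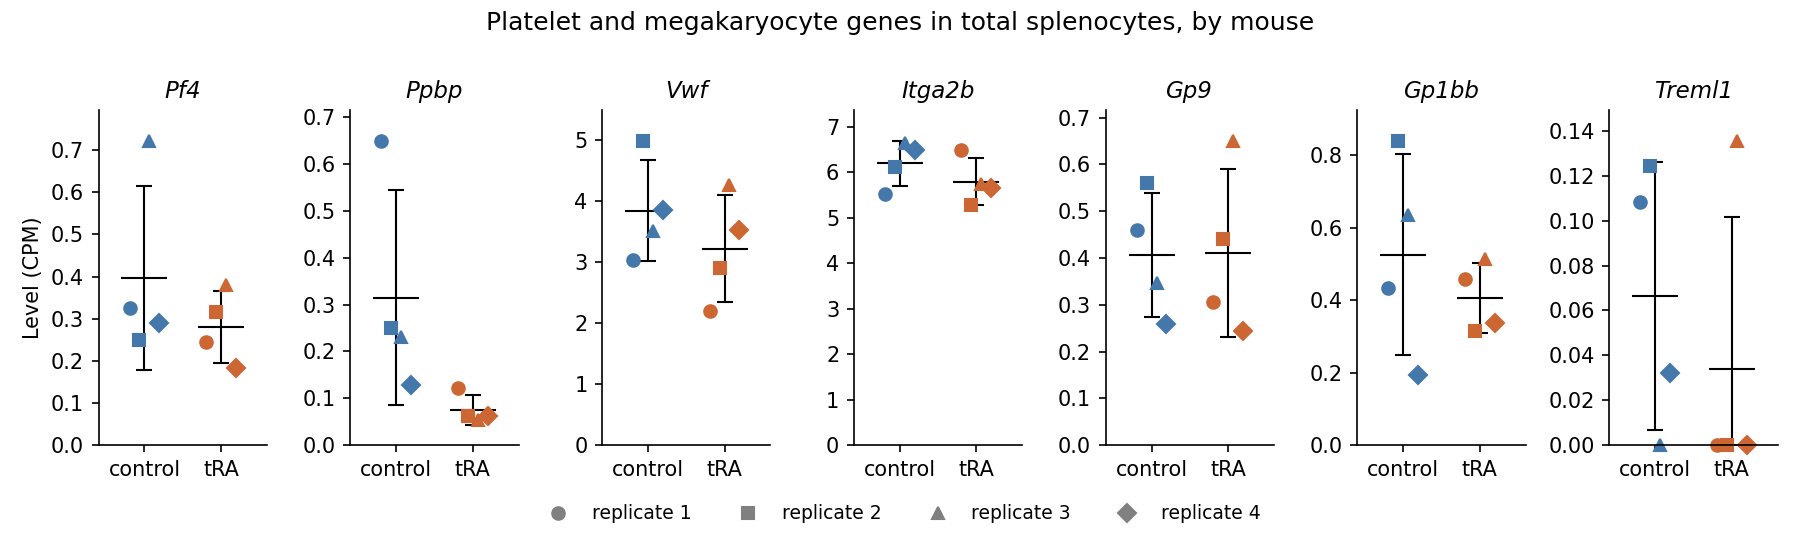
Level of each of the 7 platelet and megakaryocyte genes in CPM (vertical axes, each starting at 0) in 4 control and 4 tRA mice; symbols mark the replicate number, horizontal lines the group mean and bars the SD, drawn no lower than 0. The 4 tRA mice lie below the 4 control mice for Ppbp, where control mouse 4 and tRA mouse 1 are close (0.129 and 0.122 CPM), and the groups overlap in the other 6 panels.

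Ppbp encodes pro-platelet basic protein, the precursor of the neutrophil-attracting chemokine CXCL7 that platelets store in their alpha granules. Its counts were 24, 8, 8 and 4 in control mice 1 to 4 and 4, 2, 2 and 2 in tRA mice 1 to 4. In CPM these were 0.650, 0.249, 0.231 and 0.129 against 0.122, 0.0630, 0.0542 and 0.0611. Control mouse 1 stood highest, and tRA mice 2, 3 and 4 lay under the floor of 3 counts. Control mouse 4 and tRA mouse 1 had 4 counts each, so the groups met in counts and were apart in CPM only through the scaling to library size, by less than 1 count is worth. The mean was 0.315 ± 0.229 CPM (SD, n = 4) in controls and 0.0751 ± 0.0316 (SD, n = 4) with tRA. Over each group the counts summed to 44 and 10, a depth-adjusted ratio of control to tRA of 4.38 with an exact 95% interval of 2.17 to 9.77 that covers counting error only. Control mouse 1 held 54.5% of the control counts, and without it the ratio was 2.75, with an interval of 1.23 to 6.57.

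Because the filter on low counts removed Ppbp, its test comes from the fit without a filter. There its log2 fold change was −2.04 with a 95% interval from −3.36 to −0.72, with 4 of 4 tRA mice below the controls in CPM, at an FDR of 0.722 in the quasi-likelihood test of edgeR with Benjamini-Hochberg adjustment. Without control mouse 1 the log2 fold change was −1.39 (interval −2.87 to 0.084). Over that fit and 13 variants of it, chosen after seeing the data, the log2 fold change lay between −2.36 and −1.39, and the FDR, where the tool gave one, between 0.143 and 0.893. Ppbp was therefore lower on average in the tRA mice at a handful of counts, with groups that met at their nearest mice, and the difference did not pass the correction over all genes in any of these fits.

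Pf4, platelet factor 4 or CXCL4, is the other chemokine of the alpha granule and binds heparin. Pf4 had 12, 8, 25 and 9 counts in control mice 1 to 4, or 0.325, 0.249, 0.722 and 0.291 CPM, and 8, 10, 14 and 6 counts in tRA mice 1 to 4, or 0.244, 0.315, 0.380 and 0.183 CPM. Control mouse 3 stood apart at the top, tRA mouse 4 was lowest, and the remaining mice of both groups shared one range. The log2 fold change was −0.49 with a standard error of 0.423 and a 95% interval from −1.43 to 0.44, at an FDR of 0.837 in the quasi-likelihood test of edgeR with Benjamini-Hochberg adjustment. Without control mouse 3 it was −0.042. A p that misses the threshold does not show that Pf4 was equal in both groups, and the interval reaches from a lower to a higher level with tRA. The chemokine genes did not rank the mice alike: control mouse 1 led for Ppbp and control mouse 3 for Pf4.

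Both chemokine genes lie side by side on chromosome 5. Ppbp (ENSMUSG00000029372) occupies chr5:90768518-90770063 and Pf4 (ENSMUSG00000029373) chr5:90772435-90773383 on the plus strand of GRCm38, with 2371 bases between them. No exon of either gene is shared with another gene of GENCODE M21. RefSeq promoter windows on GRCm38.p6, each reaching from 250 bases before to 50 after a gene's RefSeq start, were matched by symbol for 6 of the 7 genes, all but Vwf. They were searched on both strands for AGATAA and TGATAA, letters bound by GATA factors, for CAGGAA, bound by ETS factors, and for AGGTCA, the core letters bound by each of the paired retinoic acid receptors. Of all 32851 windows, 11.2% held AGATAA, 9.05% TGATAA, 30.6% CAGGAA and 16.3% AGGTCA. Among the 6 genes, AGATAA stood in Pf4, CAGGAA in Ppbp, Itga2b and Treml1, and AGGTCA in Ppbp, while TGATAA stood in none. A match describes letters in a window and shows neither binding nor a cause.

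The window of Ppbp held AGGTCA at 2 places on the minus strand, at −246 to −241 and at −235 to −230 from the start of the gene. The matches are separated by 5 bases and so spell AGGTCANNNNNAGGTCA, the direct repeat named DR5 to which retinoic acid receptors are known to bind. This longer motif was searched after the Ppbp sequence had been read, and it was present in 3 of the 32851 windows (0.00913%), those of Ppbp, Gm40135 and Gm43837. The 250 bases before the start of Ppbp are printed from RefSeq as the plus strand of chr5:90768268-90768517 with both AGGTCA matches, here in their reverse complement, in capitals. For Pf4 the 20 bases of the plus strand at chr5:90772463-90772482 are printed with AGATAA in capitals, which lies at +37 to +42 within the transcribed part. For Itga2b the 30 bases at chr11:102469918-102469947 are printed along the gene's own minus strand, with the reverse complement of CAGGAA in capitals. These bases lie before the RefSeq start but within the span of the gene in GENCODE M21. The printed sequences show where the letters stand in the genes whose values are described here.
Ppbp: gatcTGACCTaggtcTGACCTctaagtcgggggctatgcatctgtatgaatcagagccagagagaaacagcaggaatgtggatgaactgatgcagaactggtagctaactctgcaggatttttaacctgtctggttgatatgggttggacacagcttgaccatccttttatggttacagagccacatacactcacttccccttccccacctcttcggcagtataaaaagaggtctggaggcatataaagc
Pf4: ggcagtgaAGATAAaacgtg
Itga2b: tggaggtgagctTTCCTGgagaggaagggg

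The adhesive ligand Vwf was better covered. Vwf encodes von Willebrand factor, made by megakaryocytes and by endothelial cells alike, and lies at chr6:125546774-125686679 (ENSMUSG00000001930). Its level was 3.03, 4.98, 3.50 and 3.85 CPM in control mice 1 to 4 and 2.20, 2.90, 4.26 and 3.51 CPM in tRA mice 1 to 4, from 72 to 160 counts per mouse. Control mouse 2 was highest and tRA mouse 1 lowest, and the groups overlapped, with tRA mouse 3 above all controls but 1. The log2 fold change was −0.25 with a standard error of 0.226 and a 95% interval from −0.75 to 0.25, at an FDR of 0.848 in the quasi-likelihood test of edgeR with Benjamini-Hochberg adjustment.

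Endothelial markers were given beside Vwf because blood vessels also make it. Of 12 listed endothelial genes 11 were tested, 9 with a positive and 2 with a negative log2 fold change (median 0.091), and 0 had an unadjusted p under 0.05. The sinusoid marker Emcn did not pass the filter and had 0 to 12 counts per mouse. Summed over the list the level was 261.7, 285.5, 292.6 and 258.2 CPM in control mice and 269.4, 269.7, 301.4 and 274.5 CPM in tRA mice. Most of it was Pecam1, an adhesion molecule that leukocytes and platelets share, with a mean of 240.0 CPM. Without Pecam1 the sum was 20.4, 41.0, 52.0 and 25.3 CPM in control mice 1 to 4 and 32.5, 28.5, 57.8 and 35.8 CPM in tRA mice 1 to 4. The mice at the top were control mice 2 and 3 and tRA mouse 3, of which control mouse 2 and tRA mouse 3 also led for Vwf; the part of endothelial cells in the Vwf level was not tested. The endothelial receptor gene Tie1 had the lowest p of the negative side (log2 fold change −0.29) and the vessel matrix gene Mmrn2 that of the positive side (0.55), with intervals from −1.35 to 0.77 and from −0.61 to 1.71.

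Itga2b encodes integrin αIIb, also named CD41, the platelet alpha subunit of the fibrinogen receptor, and lies at chr11:102453297-102470122 on the minus strand (ENSMUSG00000034664). Its level was 5.52, 6.13, 6.65 and 6.50 CPM in control mice 1 to 4 and 6.51, 5.29, 5.75 and 5.65 CPM in tRA mice 1 to 4, from 168 to 230 counts per mouse. All 8 mice lay close together, tRA mouse 1 among the higher controls and control mouse 1 among the tRA mice. The fitted log2 fold change was −0.095 with a standard error of 0.123 and a 95% interval from −0.37 to 0.18, at an FDR of 0.885 in the quasi-likelihood test of edgeR with Benjamini-Hochberg adjustment. Itga2b was thus the gene of the 5 tested with the narrowest interval.

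Gp9 and Gp1bb encode glycoprotein IX and the beta chain of glycoprotein Ib, which together with the alpha chain form the receptor for von Willebrand factor. Gp9 (chr6:87778072-87779768, ENSMUSG00000030054) had 17, 18, 12 and 8 counts in control mice 1 to 4 and 10, 14, 24 and 8 in tRA mice 1 to 4, which is 0.244 CPM in the lowest mouse, tRA mouse 4, and 0.651 CPM in the highest, tRA mouse 3. Both extremes belonged to the tRA group, so that the control values lay between them. Its log2 fold change was 0.021 with a 95% interval from −0.83 to 0.87, at an FDR of 0.994 in the quasi-likelihood test of edgeR with Benjamini-Hochberg adjustment, and its sign turned in limma-voom, with the replicate number as a block and when single mice were left out.

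Gp1bb (chr16:18620317-18622403, minus strand, ENSMUSG00000050761) had 16, 27, 22 and 6 counts in control mice 1 to 4 and 15, 10, 19 and 11 in tRA mice 1 to 4. The control mice spread widest, from 0.194 CPM in control mouse 4 to 0.840 in control mouse 2, and the tRA mice lay within that range. In the fit its log2 fold change was −0.37 with a 95% interval from −1.28 to 0.55, at an FDR of 0.872 in the quasi-likelihood test of edgeR with Benjamini-Hochberg adjustment. Its counts are uncertain, since 91.1% of its 2087 exon bases also belong to the septin gene Sept5 on the same strand and 41.5% to Gm49601, which leaves 149 bases that no other gene shares. How the counting treated reads in shared exons is not given in the sources used here.

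Treml1, which encodes the platelet alpha granule membrane receptor TLT-1, lies at chr17:48359916-48367176 (ENSMUSG00000023993). It had 4, 4, 0 and 1 counts in control mice 1 to 4 and 0, 0, 5 and 0 in tRA mice 1 to 4. No mouse stood more than 2 counts above the floor, 4 of the 8 mice had none, and no fold change is given because the means of both groups lay under the floor. A difference in Treml1 was not detectable at this depth.

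Per length of exon the 7 genes spanned a wide range of levels. Over all annotated exon bases Itga2b was highest at 1.10 ± 0.0943 CPM per kb (SD over 8 mice) and stood above Pf4 in 8 of 8 mice. Pf4 (0.470 ± 0.230) and Gp9 (0.464 ± 0.166) did not differ beyond their spread, with Pf4 the higher in 2 of 8 mice. With all exon bases taken as the length, Gp1bb (0.223 ± 0.0969) and Vwf (0.220 ± 0.0534) did not differ either, with Gp1bb the higher in 4 of 8 mice. Both lay below Gp9 on that length. Ppbp (0.180 ± 0.183) was under Vwf in 7 of 8 mice and Treml1 (0.0357 ± 0.0440) was lowest. The length of Vwf is that of the union of all its annotated exons, 16064 bases, which lowers its level on this scale. Over all annotated exon bases, the alpha granule and receptor genes that platelets are known for thus did not share one level here. The integrin gene led in every mouse on this scale. For Gp1bb the scale divides by 2087 bases, of which only 149 are shared with no other gene. If reads in shared exons were not counted, its level per base would be higher. Its place in this order, also against Itga2b, is therefore not settled.

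The genes also differed in their estimated spread between mice. The biological coefficient of variation, the spread left after counting noise within groups, was at percentile 44.1 of all genes tested for Itga2b, 75.0 for Vwf, 87.9 for Gp9, 91.2 for Pf4 and 92.4 for Gp1bb. The percentiles were not matched for level. Gp9, Pf4 and Gp1bb also had lower mean CPM than Itga2b and Vwf, so steadiness and level cannot be told apart here. Summed over the 7 genes, the level was 10.5, 13.1, 12.1 and 11.2 CPM in control mice 1 to 4 and 9.83, 9.32, 11.7 and 9.99 CPM in tRA mice 1 to 4. Control mouse 2 was highest and tRA mouse 2 lowest, and tRA mouse 3 lay within the control range, so the groups overlapped. The highest mouse differed from gene to gene: control mouse 1 for Ppbp, control mouse 2 for Vwf and Gp1bb, control mouse 3 for Pf4 and Itga2b, and tRA mouse 3 for Gp9 and Treml1.

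Likeness was measured by the Pearson correlation, over the 8 mice, with the mean of the 7 genes' standardised log2 CPM, among 13576 other genes with at least 1 CPM on average. The 10 highest were Ccdc34 (0.965), Tacc3 (0.941), Hmg20b (0.941), Tst (0.923), Hpn (0.920), Sec13 (0.917), Gmnn (0.916), Muc13 (0.915), Fgf1 (0.909) and Alad (0.903). After the group means were subtracted they were Car2 (0.982), Aldh1a1 (0.980), Tldc1 (0.966), E430018J23Rik (0.965), Nr1h3 (0.962), Fech (0.959), Slc48a1 (0.958), Dhrs11 (0.952), Gata1 (0.944) and Pxmp4 (0.942). These are the extremes among many genes over only 8 mice, each value of a mouse comes from the same library as the score, and they are given as a description. Gata1, the megakaryocyte and erythroid master factor, was the gene of the lists described next that appeared among them.

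The wider list of platelet surface receptors holds 18 genes, among them Itga2b, Gp9, Gp1bb and Treml1. Of the 18 genes 15 were tested, 10 with a positive and 5 with a negative log2 fold change, with a median of 0.036 that was −0.037 without control mouse 4. Leaving out Itga2b, Gp9, Gp1bb and Treml1, 12 were tested, 9 positive and 3 negative (median 0.11). In the quasi-likelihood test of edgeR none had an FDR under 0.1. There 1 had an unadjusted p under 0.05, a cutoff that 6.49% of the 16484 fitted genes met. That gene was P2ry1, an ADP receptor of platelets, with a mean of 1.10 ± 0.103 CPM in controls and 1.64 ± 0.366 with tRA (SD, n = 4 each), a log2 fold change of 0.57 with an interval from 0.086 to 1.06, and an FDR of 0.757 in the quasi-likelihood test of edgeR with Benjamini-Hochberg adjustment. The P2ry1 groups overlapped, and 23.1% of its exon bases are shared with the antisense gene Gm37035. P2ry12, another ADP receptor, had 1.86 ± 0.534 CPM in controls and 2.57 ± 0.577 with tRA (log2 fold change 0.46, interval −0.088 to 1.02).

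Itgb3, the beta subunit that pairs with αIIb on platelets and with αV on other cells, was the most abundant receptor gene at 125.3 ± 8.28 CPM in controls and 130.8 ± 8.78 with tRA. The tetraspanin Cd9 had the lowest p of the negative side, with a log2 fold change of −0.10 and an interval from −0.31 to 0.11. Without control mouse 3 the log2 fold change of Cd9 was −0.028. Gp6, the collagen receptor, did not pass the filter on low counts. Gp6 counts were 6, 0, 1 and 4 in control mice 1 to 4 and 0, 0, 1 and 0 in tRA mice 1 to 4. The groups overlapped, and the counts summed to 11 in the controls and 1 in the tRA mice.

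**Figure D2:**
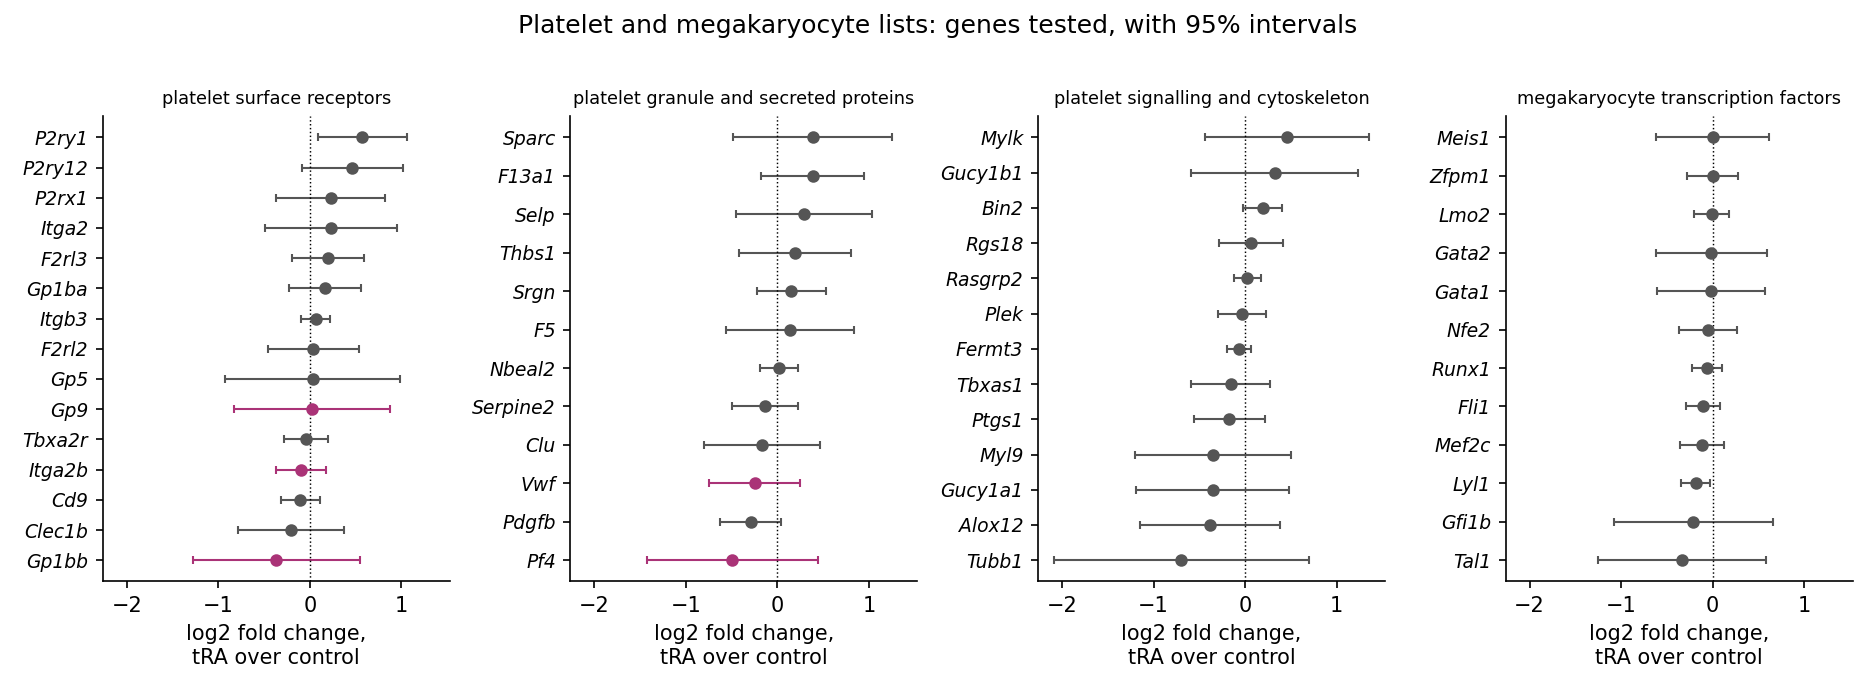
Log2 fold change of tRA over control (horizontal axes, points) with its 95% interval (bars) for the tested genes of 4 lists of platelet and megakaryocyte genes in 4 control and 4 tRA mice; the named receptor, chemokine and ligand genes Pf4, Vwf, Itga2b, Gp9 and Gp1bb are coloured. The intervals of P2ry1 and Lyl1 lie on one side of 0, and those of all other genes shown cross it.

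Among 14 granule and secreted proteins, which include Pf4, Ppbp and Vwf, 12 were tested, 7 with a positive and 5 with a negative log2 fold change, and 0 had an unadjusted p under 0.05 or an FDR under 0.1 in the quasi-likelihood test of edgeR. The median was 0.077 and it changed sign in other fits. Leaving out Pf4, Ppbp and Vwf, 10 were tested, 7 positive and 3 negative (median 0.14). Srgn, the proteoglycan serglycin of many leukocyte granules, was the most abundant at 313.9 ± 32.9 CPM in controls and 347.9 ± 94.2 with tRA. F13a1, the A subunit of coagulation factor XIII that monocytes also make, had a log2 fold change of 0.38 (interval −0.18 to 0.95). The matrix protein gene Sparc had a log2 fold change of 0.38 (interval −0.48 to 1.25) and the growth factor gene Pdgfb one of −0.29 (interval −0.63 to 0.039). Mmrn1, the alpha granule protein multimerin, was removed by the filter with 0 to 12 counts per mouse.

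Among 14 signalling and cytoskeletal genes 13 were tested, 5 with a positive and 8 with a negative log2 fold change (median −0.065), and 0 had an unadjusted p under 0.05 or an FDR under 0.1 in the quasi-likelihood test of edgeR. Tubb1, the platelet-specific beta tubulin, is the most restricted of them, and its counts were 25, 10, 1 and 13 in control mice 1 to 4 and 6, 4, 13 and 7 in tRA mice 1 to 4. Control mouse 1 was highest and control mouse 3 lowest, the groups overlapped, and the log2 fold change was −0.70 with an interval from −2.09 to 0.70. It ranged from −1.09 without control mouse 3 to −0.17 without control mouse 1, and was −0.20 in limma-voom. Gng11, a G protein gamma subunit, did not pass the filter, with 15, 11, 10 and 2 counts in control mice and 10, 5, 8 and 6 in tRA mice.

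In the other tested genes named from this list the control and tRA mice overlapped. Rasgrp2, an exchange factor for the small GTPase RAP1 also made by lymphocytes, was most abundant, at 553.9 ± 29.4 CPM in controls and 563.7 ± 16.9 with tRA. Mylk, the myosin light chain kinase, had a log2 fold change of 0.46 (interval −0.43 to 1.36) and the 12-lipoxygenase gene Alox12 one of −0.38 (interval −1.15 to 0.38). The lowest p of each side belonged to Bin2, a membrane-shaping protein (0.19, interval −0.019 to 0.40), and to Fermt3, the integrin activator kindlin-3 (−0.065, interval −0.20 to 0.064).

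All 12 megakaryocyte transcription factors were tested, 2 with a positive and 10 with a negative log2 fold change, and the median was −0.056. In edgeR's quasi-likelihood test 0 had an FDR under 0.1. There an unadjusted p under 0.05 was seen for 1 of the 12, beside 6.49% of the 16484 genes in the fit. That gene was Lyl1, a basic helix-loop-helix factor of blood progenitors and B cells, at 90.0, 104.0, 96.9 and 94.5 CPM in control mice 1 to 4 and 78.5, 82.3, 86.3 and 92.6 CPM in tRA mice 1 to 4. The tRA mice 1 to 3 lay below all controls and tRA mouse 4 within them, with a log2 fold change of −0.18 (interval −0.34 to −0.023) at an FDR of 0.757 in the quasi-likelihood test of edgeR with Benjamini-Hochberg adjustment. Mef2c, which B cells also use, was the most abundant factor at 278.0 ± 36.7 CPM in controls and 256.7 ± 27.0 with tRA. Zfpm1, the GATA1 partner FOG1, had the lowest p of the positive side at a log2 fold change of 0.0022 (interval −0.28 to 0.28), a value that turned negative in some fits.

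Tal1, Gfi1b and Gata1, factors that red cell precursors also use, varied between mice, whereas others of the list such as Zfpm1 lay in a narrower range (33.1 to 51.2 CPM). Tal1 was at 4.36, 7.44, 4.42 and 2.17 CPM in control mice 1 to 4 and at 2.26, 2.27, 6.94 and 3.09 CPM in tRA mice 1 to 4. Gfi1b was at 1.52, 3.58, 1.94 and 1.23 CPM in control mice and at 0.977, 1.73, 3.01 and 1.37 CPM in tRA mice. Gata1 was at 4.52, 6.54, 6.07 and 2.97 CPM in control mice and at 4.31, 3.90, 7.27 and 4.34 CPM in tRA mice. Control mouse 2 and tRA mouse 3 led their groups for all 3 factors, and the groups overlapped. The log2 fold change was −0.33 for Tal1 (interval −1.25 to 0.59) and −0.21 for Gfi1b (interval −1.08 to 0.66), and with each mouse left out they ranged from −0.86 to −0.0018 and from −0.60 to 0.19, lowest without tRA mouse 3 and highest without control mouse 2.

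Red cell transcripts are given beside these factors. Of 13 erythroid genes in the matrix all were tested, 9 with a positive and 4 with a negative log2 fold change (median 0.26), and 0 had an unadjusted p under 0.05. The median rested on tRA mouse 3, without which it was −0.52, and it was 0.053 in limma-voom. Their summed level was 887, 1682, 2526 and 547 CPM in control mice 1 to 4 and 2349, 694, 3802 and 655 CPM in tRA mice 1 to 4, most of it the beta globin Hbb-bs, with a mean of 989 CPM. The sum without Hbb-bs was 388, 715, 971 and 221 CPM in control mice and 870, 300 and 1487 CPM in tRA mice 1 to 3 and 276 CPM in tRA mouse 4. tRA mouse 3 was highest by this sum, as it was for Gata1, whereas tRA mouse 1 had much globin but low Tal1 and Gfi1b, and the part of red cell precursors in the factor levels was not tested. Hbb-bt, the other adult beta globin, had the lowest p of the positive side (0.80, interval −0.68 to 2.28) and Car1, carbonic anhydrase of red cells, that of the negative side (−0.55, interval −1.43 to 0.33).

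Markers of other cells that the suspension could hold were set beside the platelet genes. Of 7 tested stem and progenitor genes 1 had a positive and 6 a negative log2 fold change (median −0.068). Procr, the endothelial protein C receptor found on stem cells, had the 1 unadjusted p under 0.05. Its groups did not overlap (2.00 ± 0.154 CPM in controls, 1.45 ± 0.156 with tRA). The FDR of Procr was 0.757 in the quasi-likelihood test of edgeR with Benjamini-Hochberg adjustment. In that test 6.49% of the 16484 genes reached such a p, and 3.54% had groups apart in CPM. Of 6 tested mast cell and basophil genes 4 were positive and 2 negative (median 0.069), of 6 monocyte genes 5 were positive and 1 negative (median 0.10), of 5 B cell genes 3 were positive and 2 negative (median 0.0045), and of 6 T cell genes 5 were positive and 1 negative (median 0.12), and none of these 4 lists held an unadjusted p under 0.05. All 8 neutrophil precursor granule genes were negative at an unadjusted p under 0.05 (median −0.90), and their sum was 542, 680, 715 and 614 CPM in control mice 1 to 4 and 242, 301, 329 and 477 CPM in tRA mice 1 to 4. All 8 immediate early genes were negative as well, 3 of them at an unadjusted p under 0.05 (median −0.52, from −0.87 without tRA mouse 1 to −0.30 without tRA mouse 3). The medians of the signalling (−0.065), transcription factor (−0.056) and stem and progenitor lists were negative too. All lists were chosen with earlier results of these data known. In the quasi-likelihood test of edgeR 0 genes of any list had an FDR under 0.1. The study's supplement lists Camp, Ngp and Ltf of the neutrophil precursor genes among its significant genes, which were called with DESeq2. The part of neutrophil precursors and of the other listed cells in the Ppbp counts was not tested.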

How the data were processed

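Splenocyte RNA libraries of 4 control and 4 tRA mice were sequenced together, and samples were grouped by their titles. The authors deposited raw counts per Ensembl gene without normalization. The study's methods name Tophat2, Bowtie2 and HTSeq, whereas the submitters' processing notes list STAR 2.5.2b, featureCounts 1.5.1, DESeq2 1.26.0 and GRCm38, so the aligner, the counter and its strand setting are not certain here. The authors' DESeq2 comparison, which holds mean normalized counts, fold changes and p-values, was not used.

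Of 51826 gene identifiers, 51633 were in GENCODE M21 and 193 were not. The tests were run under R 4.3.3 in edgeR 4.0.16 (filterByExpr with a minimum of 10 counts, TMM, quasi-likelihood test, Benjamini-Hochberg adjustment, FDR under 0.1), limma 3.58.1 and DESeq2 1.42.0, with scripts checked on simulated data, and summarised in Python 3.11.15 with pandas 2.3.3 and matplotlib 3.10.9. No pair of mice from one group was alike within sampling noise (chi-square divided by its degrees of freedom, 12.9 to 65.4). Intervals are at 95%, and floors of 3 counts cover counting error only. Members and lists were chosen with earlier results of these data known.

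The genes named are the 7 members; from each list the most abundant gene, the gene with the lowest p in each direction, any gene past the FDR and any gene removed by the filter; from the 4 platelet and megakaryocyte lists also the 3 largest log2 fold changes; and the 10 genes most like the members over the 8 mice, before and after subtracting group means (log2 CPM with a prior count of 2). Most are given in the text, and 1 listed receptor gene removed by the filter is not reported here. Cd79a, Trac and Gata1 were also used as points of reference, and Sept5, Gm49601, Gm37035, Gm40135 and Gm43837 are named for shared exons or motifs, after the values were seen. Alternatives were DESeq2, limma-voom, RLE normalization, library size alone, no filter, at least 10 counts in every sample, the replicate number as a block and each mouse left out in turn; their combinations with no filter for Ppbp and Treml1, and the DR5 motif, were chosen after seeing the data. Protein sequences were not used here.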

Additional observations from a re-analysis of the deposited data

Results flagged for a closer look

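In 12 of 172 groups of 4 mice, 1 mouse lay far from the other 3, its gap to the nearest taking up most of the group's range. Chance gives such a gap in about 1 in 20 groups, which is 8.6 of 172. In 3 of the 12 (Treml1, Gp6 and Tpsb2) the other mice had no counts, so that any count stands apart and these say little. Among the 7 platelet and megakaryocyte genes this was so for Pf4 in control mouse 3 (0.722 CPM, the other controls 0.249 to 0.325), Ppbp in tRA mouse 1 (0.122 CPM, the others 0.0542 to 0.0630) and Treml1 in tRA mouse 3 (0.136 CPM, the others at 0). The tRA values of Ppbp and Treml1 rest on at most 5 counts each.

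Among the other platelet genes, Gp6 stood out in tRA mouse 3 with 0.0271 CPM, which is 1 count, while the other tRA mice were at 0. Alox12 was low in control mouse 4 (0.194 CPM, the others 0.405 to 0.433) and Bin2 low in tRA mouse 1 (286.9 CPM, the others 344.6 to 356.1). Cd9 and Pdgfb were both high in control mouse 3, at 44.4 CPM (the others 35.5 to 36.4) and 14.7 CPM (the others 9.60 to 10.3). The mouse that stood out for Pf4 was thus also the one for Cd9 and Pdgfb.

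Outside the platelet genes, the summed endothelial level was high in tRA mouse 3 (301.4 CPM, the others 269.4 to 274.5). The neutrophil granule gene Camp was high in tRA mouse 4 (42.7 CPM, the other tRA mice 25.2 to 26.9), and so was the mast cell and basophil receptor gene Fcer1a (0.336 CPM, the others 0.0630 to 0.0916). The mast cell tryptase gene Tpsb2 had 0.0542 CPM in tRA mouse 3, from 2 counts, and 0 in the other tRA mice.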

How the results depend on the processing

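Of 381 recomputed log2 fold changes of single genes 369 kept their sign and 12 turned, and of 210 recomputed medians of lists 194 kept it and 16 turned. None of the 7 platelet and megakaryocyte genes passed an FDR of 0.1 where a fit gave one. DESeq2 gave one only for Itga2b and Vwf, and these 2 alone remain with at least 10 counts in every sample. Over all genes tested, the number with an FDR under 0.1 was 0 in edgeR, 44 in DESeq2, 1 in limma-voom and 6 without a filter on low counts, and it ranged from 0 to 3 when each mouse was left out in turn. At an unadjusted p under 0.05 there were 1070 in edgeR and 1154 in DESeq2.

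The log2 fold change of Gp9 turned negative in limma-voom (−0.018) and with the replicate number as a block (−0.0048), and it ranged from −0.30 to 0.21 with each mouse left out. That of Zfpm1 was −0.0011 with at least 10 counts in every sample and ranged from −0.10 to 0.12 with each mouse left out. The same range was −0.60 to 0.19 for Gfi1b and −0.0018 to 0.30 for Srgn, and the median of the stem and progenitor genes ranged from −0.26 to 0.038. Without a filter the median of all 7 genes was −0.36 and that of the signalling genes −0.11. With each mouse left out, the median of those of the 7 that passed the filter ranged from −0.42 to −0.067. Ppbp and Treml1 are not part of that range. The median of the signalling genes ranged from −0.16 to −0.00053. For single genes the ranges were 0.12 to 0.78 for Sparc, −0.36 to −0.14 for Pdgfb and 0.18 to 0.67 for F13a1. They were 0.23 to 0.71 for Mylk, 0.30 to 0.59 for P2ry12 and −0.58 to −0.29 for Alox12. Medians of other lists turned their sign as well: the same range was −0.037 to 0.10 for platelet receptors, −0.048 to 0.094 for granule proteins (−0.055 without a filter), −0.13 to 0.0042 for the transcription factors, −0.053 to 0.36 for endothelial, −0.52 to 0.47 for erythroid, −0.019 to 0.18 for mast cell and basophil, −0.046 to 0.25 for monocyte and −0.048 to 0.071 for B cell genes. The cause of the turns was not tested. The median of the T cell genes kept its sign, with a range of 0.072 to 0.19 with each mouse left out. For Pf4 the range with each mouse left out was −0.68 to −0.042 (without control mouse 3), for Vwf −0.42 to −0.10 and for Gp1bb −0.63 to −0.057 (both without control mouse 2), and for Itga2b −0.15 to −0.056. Ppbp and Treml1 have values only without a filter. In that fit, among alternatives chosen after seeing the data, the number of all genes with an FDR under 0.1 ranged from 3 to 412 with each mouse left out, the highest without tRA mouse 1, where the FDR of Ppbp was 0.143 in edgeR.

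Both groups carry replicate numbers 1 to 4. The correlation of the deviations of same-numbered mice from their group means was 0.157, −0.023, −0.014 and 0.259. Whether same-numbered mice shared anything beyond the number was not tested. With the replicate number as a block, 0 genes had an FDR under 0.1 and 1200 an unadjusted p under 0.05 in edgeR's quasi-likelihood test, and the block changed no call of the named genes. Without a filter the count was 187 with the block and 6 without it, and the FDR of Ppbp with the block was 0.398 in edgeR.

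The depth is thin for Ppbp, Treml1 and Gp6, whose levels rest on 0 to 24 counts per mouse, and counting error is then a large part of the spread. For Pf4, Gp9 and Gp1bb, with 6 to 27 counts per mouse, the 95% intervals span well over 1 on the log2 scale. Only for Itga2b and Vwf did at least 72 counts stand behind every mouse. With 4 mice a group, the aligner and counter uncertain and shared exons in Gp1bb, small differences in these genes cannot be settled from these libraries.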
